A study of Mus musculus with 8 samples.

Results

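The 9 genes described here encode the peroxisome proliferator-activated receptors (*Pparg*, *Ppara* and *Ppard*), the retinoid X receptors *Rxra* and *Rxrb*, and the CCAAT/enhancer-binding proteins *Cebpa*, *Cebpb*, *Cebpd* and *Cebpg*. They were taken by gene symbol from RNA-seq data of C3H10T1/2 cells, a line of mesenchymal stem cells (MSC) from the mouse that becomes fat cells in adipogenic medium. The files list 41325 gene symbols, and 11513 of these had an RPKM (reads scaled to the exon length of the gene and to the mapped reads of the library) over 1 in at least 1 library, including 8 of the 9 factors. The exception was *Ppara*.

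RNA was taken from 4 lines at 2 times, day 0 and day 5, and each of the 8 conditions has 1 library. The control line (shControl) is labelled as wild type, and the shKDM4D, shNFIB and shMLL1 lines carry knockdowns of KDM4D (a histone H3K9 demethylase), NFIB (a DNA-binding nuclear factor I protein) and MLL1 (a histone H3K4 methyltransferase encoded by *Kmt2a*). All lines were kept in 10% fetal bovine serum. Day 0 cells were past confluence and had not been treated. Day 5 cells had received 10 ug/ml insulin, 1 uM dexamethasone and 0.5 mM isobutylmethylxanthine (MDI) until day 2, then insulin alone for 2 days, then serum alone. The knockdown lines were puromycin-resistant clones carrying shRNA plasmids, and as each was sequenced once per day, a difference between 2 lines cannot be told apart from a difference between clones.

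In fat cell formation, the hormone mixture first induces C/EBPβ and C/EBPδ, which are known to switch on *Pparg* and *Cebpa*. PPARγ and C/EBPα then maintain the expression of each other and of the fat cell genes. A PPAR binds DNA as a dimer with an RXR, and the C/EBP proteins bind as dimers through leucine zippers.

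The RefSeq promoters (250 bases before and 50 after a transcription start, build GRCm38.p6) of *Pparg*, *Cebpa* and *Cebpb* are shown because the first 2 genes had the widest range of levels of the 9 and *Cebpb* did not. Capitals mark exact matches on either strand to 5 short motifs, which are the C/EBP core TTGCNNAA, the nuclear receptor site AGGTCA, the nuclear factor I site TTGGCA, the CCAAT box and the TATA box TATAAA. *Pparg* lies on the plus strand of chromosome 6 and has 3 RefSeq starts, of which the first and the last are 60.9 kb apart. Transcription from the last start gives the isoform that is selective for fat cells.

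Pparg, first start, chr6:115360894-115361193, plus strand: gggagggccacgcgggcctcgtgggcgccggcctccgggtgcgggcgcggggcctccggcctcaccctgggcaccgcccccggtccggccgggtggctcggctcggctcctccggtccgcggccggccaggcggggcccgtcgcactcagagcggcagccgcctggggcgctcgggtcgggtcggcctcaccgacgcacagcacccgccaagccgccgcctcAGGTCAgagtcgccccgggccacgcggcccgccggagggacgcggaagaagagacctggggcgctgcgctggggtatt
Pparg, last start, chr6:115421816-115422115, plus strand: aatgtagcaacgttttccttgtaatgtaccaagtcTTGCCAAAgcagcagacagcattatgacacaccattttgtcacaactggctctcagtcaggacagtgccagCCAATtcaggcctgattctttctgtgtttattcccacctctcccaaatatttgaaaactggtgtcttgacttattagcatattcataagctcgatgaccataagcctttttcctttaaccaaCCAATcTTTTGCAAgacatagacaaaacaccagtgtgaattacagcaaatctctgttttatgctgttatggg
Cebpa, chr7:35119043-35119342, plus strand: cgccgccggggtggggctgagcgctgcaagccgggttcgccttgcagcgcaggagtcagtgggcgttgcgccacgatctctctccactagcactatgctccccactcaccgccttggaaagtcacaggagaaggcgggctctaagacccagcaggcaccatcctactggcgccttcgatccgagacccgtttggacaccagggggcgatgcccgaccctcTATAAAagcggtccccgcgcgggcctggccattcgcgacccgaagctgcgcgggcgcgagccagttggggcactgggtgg
Cebpb, chr2:167688665-167688964, plus strand: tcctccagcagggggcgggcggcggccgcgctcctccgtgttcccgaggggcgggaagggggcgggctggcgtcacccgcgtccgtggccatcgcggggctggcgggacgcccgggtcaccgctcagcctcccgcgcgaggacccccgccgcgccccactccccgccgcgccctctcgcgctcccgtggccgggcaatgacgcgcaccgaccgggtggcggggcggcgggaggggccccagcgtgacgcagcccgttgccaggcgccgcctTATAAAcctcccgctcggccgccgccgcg

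The 2 *Pparg* windows shown differed widely in composition. The first had a GC content of 80.3% and 44 CpG sites, and the last had 40.3% and 2 CpG sites, against medians of 52.7% and 7 over 32817 mouse promoters of this length. The first window held a single AGGTCA, at position -28 from the start. The window of the middle start, not shown, had a GC content of 62.7% and 13 CpG sites. It held AGGTCA at -9 and, on the minus strand, matches to the TATA box at -29 and the CCAAT box at -83. The last held the C/EBP core at positions -215 and -16, the CCAAT box at -144 and -22, and the nuclear factor I site at -214, where it overlaps the upstream C/EBP core. Over all promoters, the C/EBP core was found in 10.8%, AGGTCA in 16.3%, the nuclear factor I site in 14.1%, the CCAAT box in 37.4% and the TATA box in 13.6%. The *Cebpa* window held a TATA box at -30 and none of the other 4 motifs. The only match in the *Cebpb* window was TATAAA at 21, which is downstream of the start. RefSeq promoters were found for 8 of the 9 genes, and *Cebpd* had no entry. The RPKM values are per gene, so transcripts from the *Pparg* starts are not separated in the results that follow.

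The 8 libraries held from 15800000 to 38200000 mapped reads, so that 3 reads on 1 kb of exons corresponded to an RPKM of 0.0785 in the deepest and 0.189 in the shallowest. Reads of 2 rRNA-like genes made up between 3.07% and 10.5% of the libraries, with the highest values at day 0. *Nfib* was at an RPKM of 2.31 and 3.38 in the shNFIB libraries against 9.92 and 17.0 in shControl, and *Kmt2a* at 2.00 and 1.63 in the shMLL1 libraries against 5.17 and 5.27. *Kdm4d* did not exceed an RPKM of 0.235 in any library, so its knockdown could hardly be assessed. Of the 8 mesenchymal markers, 7 had an RPKM over 1, but *Thy1* set the lines apart, at 25.0 in shControl, 11.8 in shMLL1, 0.0171 in shKDM4D and 0.0179 in shNFIB cells at day 0. Intervals of levels and ratios given below are exact 95% intervals from the recovered read numbers and cover counting error only. Those of differences of changes also cover counting error only, but use a normal approximation. Those of the tested day and line effects come from the fitted model and not from read numbers. A condition has no replicate, so a single line on a single day was compared without a test, and what was tested is the day effect across the 4 lines and the line effects across both days.

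*Pparg* encodes the receptor that directs fat cell formation (chromosome 6, 115360951 to 115490399). Its RPKM was 8.20 at day 0 and 21.7 at day 5 in shControl cells, 5.60 and 8.21 in shKDM4D, 6.02 and 7.48 in shNFIB, and 3.34 and 7.22 in shMLL1 cells. The shControl library at day 5 stood alone at the top, and the next value was lower by 1.40 on the log2 scale (1.25 to 1.55). The 3 knockdown lines at day 5 came out near the level that shControl cells had before induction. Set against that starting level, the log2 ratio was 0.00 in shKDM4D (-0.17 to 0.17), -0.13 in the shNFIB line (-0.32 to 0.06) and -0.18 in the shMLL1 line (-0.33 to -0.03). Of the 7 pairs of neighbours in the order of the 8 libraries, 3 differed beyond counting error.

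*Cebpa*, whose protein maintains the fat cell state together with PPARγ (chromosome 7, 35119293 to 35121928), had the widest range. Its RPKM went from 2.05 to 14.0 in shControl cells, from 1.59 to 5.42 in shKDM4D, from 1.22 to 3.66 in shNFIB and from 0.596 to 2.42 in shMLL1 cells. The day 5 values of the 4 lines were all apart beyond counting error, in the order shControl, shKDM4D, shNFIB and shMLL1. The highest library was 23.5-fold above the lowest, against 6.48-fold for *Pparg*. Unlike *Pparg*, *Cebpa* in shKDM4D cells at day 5 was above shControl cells at day 0, with a log2 ratio of 1.40 (1.11 to 1.70), and the corresponding ratio was 0.84 in the shNFIB line (0.50 to 1.18) and 0.24 in the shMLL1 line (-0.07 to 0.55).

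**Figure D1:**
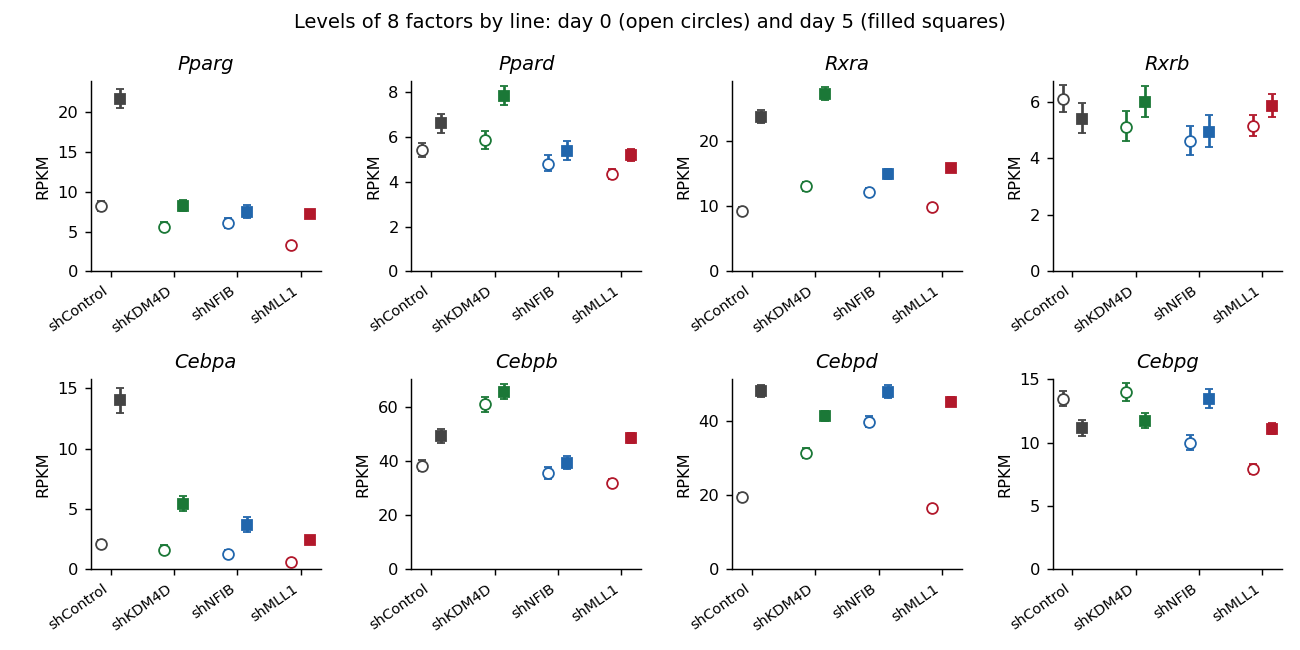
RPKM of 8 factors (one panel each, vertical axes from 0) in the 4 lines at day 0 (open circles) and day 5 (filled squares), 1 library per point, with exact 95% Poisson intervals for counting error. *Pparg* reached 21.7 in shControl cells at day 5 and at most 8.21 in the knockdown lines, while *Rxrb* lay between 4.62 and 6.11 throughout.

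*Rxra*, the main RXR of these cells (chromosome 2, 27676440 to 27762957), went from an RPKM of 9.35 to 23.8 in shControl cells, from 13.1 to 27.4 in shKDM4D, from 12.2 to 15.0 in shNFIB and from 9.85 to 16.0 in shMLL1 cells. The highest value was that of shKDM4D cells at day 5, which was above shControl by 0.20 on the log2 scale (0.12 to 0.28). In the shNFIB and shMLL1 lines the day 5 ratio to shControl was -0.67 (-0.77 to -0.57) and -0.58 (-0.65 to -0.50). In RPKM, the shKDM4D line thus lacked most of the gain of *Pparg* but not that of its dimer partner. The *Rxra* gain in RPKM was 14.3 in shKDM4D and 14.5 in shControl cells, and the *Pparg* gain 2.61 against 13.5. On the log2 scale the *Rxra* change was smaller in shKDM4D cells, which started higher, at 1.06 against 1.35 in shControl.

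*Rxrb* (chromosome 17, 34031812 to 34038399) had the narrowest range, from 4.62 in shNFIB at day 0 to 6.11 in shControl at day 0. None of its 7 neighbouring pairs differed beyond counting error, although libraries farther apart in the order did, with shNFIB cells at day 0 below shControl by -0.40 on the log2 scale (-0.60 to -0.20). Its RPKM from day 0 to day 5 was 6.11 and 5.41 in shControl, 5.12 and 5.99 in shKDM4D, 4.62 and 4.95 in shNFIB, and 5.15 and 5.86 in shMLL1 cells.

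*Ppard*, the widely expressed PPAR with a known role in fatty acid use (chromosome 17, 28232700 to 28301474), had an RPKM of 5.41 and 6.61 in shControl cells at days 0 and 5. It had 5.85 and 7.86 in shKDM4D, 4.82 and 5.39 in shNFIB, and 4.35 and 5.21 in shMLL1 cells. It was highest in shKDM4D cells at day 5, above shControl by 0.25 (0.13 to 0.37). *Ppara*, the fatty acid oxidation receptor of the liver (chromosome 15, 85734983 to 85802819), was listed at 0 in 6 libraries and at an RPKM of 0.00682 and 0.00684 in the shMLL1 libraries, equal to 1 read each.

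*Cebpb* (chromosome 2, 167688915 to 167690418), an early factor of the cascade, had the highest level of the 9 in 6 of the 8 libraries. Its RPKM was 38.3 and 49.3 in shControl cells at days 0 and 5, 61.1 and 65.9 in shKDM4D, 35.8 and 39.5 in shNFIB, and 32.0 and 48.7 in shMLL1 cells. Both shKDM4D libraries stood above the other 6. The shKDM4D to shControl ratio was 0.67 on the log2 scale at day 0 (0.57 to 0.77) and 0.42 at day 5 (0.32 to 0.52). On the annotation, 312 exon bases of *Cebpb* (20.7%) are shared with *Tmem189* on the opposite strand, which had an RPKM of 15.6 to 33.4, and whether the reads were counted by strand is not given in the sources used here.

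*Cebpd* (chromosome 16, 15887286 to 15891031), the other early factor, had an RPKM of 19.6 and 48.1 in shControl cells, 31.3 and 41.4 in shKDM4D, 39.8 and 47.8 in shNFIB, and 16.4 and 45.2 in shMLL1 cells. At day 5 the 4 lines lay within 41.4 and 48.1, and they were spread between 16.4 and 39.8 at day 0. The smaller changes of the shKDM4D and shNFIB lines came with a higher starting level. The shKDM4D line was also the lowest of the 4 at day 5, with a ratio to shControl of -0.22 (-0.29 to -0.15). Before induction, *Cebpd* was above shControl by 1.03 on the log2 scale in shNFIB (0.94 to 1.11) and by 0.68 in shKDM4D cells (0.59 to 0.77), and the ratio was -0.26 in shMLL1 cells (-0.34 to -0.17). *Cebpd* shares 562 exon bases (15.0%) with *Spidr* on the opposite strand, whose RPKM was 5.86 to 11.0.

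*Cebpg* (chromosome 7, 35046422 to 35056573, 62.7 kb from *Cebpa*) encodes a C/EBP protein without a strong activation domain that pairs with other leucine zipper factors, ATF4 among them. Its RPKM was 13.5 and 11.1 in shControl, 14.0 and 11.7 in shKDM4D, 9.97 and 13.5 in shNFIB, and 7.88 and 11.1 in shMLL1 cells. It was lower at day 5 than at day 0 in shControl (-0.27, -0.38 to -0.17) and shKDM4D cells (-0.25, -0.36 to -0.15). It was higher in shNFIB (0.43, 0.31 to 0.55) and shMLL1 cells (0.49, 0.40 to 0.59), although divided by *Gapdh* the shKDM4D and shNFIB changes take the opposite sign. *Atf4*, which is not one of the 9, had an RPKM of 187 and 71.9 in shControl, 212 and 109 in shKDM4D, 70.9 and 105 in shNFIB, and 104 and 126 in shMLL1 cells.

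How the factors changed from day 0 to day 5 was then counted in each line. In shControl cells, *Pparg*, *Rxra*, *Cebpa* and *Cebpd* rose past 2-fold, 4 of the 8 factors tested, and 0 fell. Over all 11513 genes, 13.0% rose and 8.56% fell past 2-fold. The log2 changes were 1.40 for *Pparg* (1.26 to 1.54), 1.35 for *Rxra* (1.25 to 1.45), 2.77 for *Cebpa* (2.51 to 3.04) and 1.30 for *Cebpd* (1.22 to 1.38). *Cebpb* changed by 0.36 (0.26 to 0.47) and *Ppard* by 0.29 (0.16 to 0.42), both under 2-fold.

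In shKDM4D cells, *Rxra* (1.06, 0.97 to 1.15) and *Cebpa* (1.77, 1.41 to 2.14) rose past 2-fold and 0 of the 8 fell, against 12.8% and 8.44% of all genes. The *Rxra* interval reached below 2-fold, and its change is 0.99, short of 2-fold, with the rRNA-like genes left out. In shNFIB cells *Cebpa* alone rose past 2-fold (1.59, 1.15 to 2.04) and 0 fell, against 12.6% and 4.96% of all genes. The changes of the other 7 in this line were between 0.10 and 0.43, and all 7 take a negative sign when divided by *Gapdh*, whose own RPKM was 159 at day 0 and 235 at day 5 in this line. In shMLL1 cells, *Pparg* (1.11, 0.93 to 1.29), *Cebpa* (2.02, 1.61 to 2.45) and *Cebpd* (1.46, 1.40 to 1.53) rose past 2-fold and 0 fell, against 20.4% and 6.89% of all genes.

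The lines differed in which gains they retained. The change in a knockdown line minus that in shControl cells was -0.85 for *Pparg* in shKDM4D (-1.09 to -0.61), -1.09 in the shNFIB line (-1.35 to -0.83) and -0.29 in the shMLL1 line (-0.52 to -0.07). For *Cebpa* it was -1.01 (-1.44 to -0.57), -1.19 (-1.69 to -0.68) and -0.75 (-1.23 to -0.27) for these lines in turn. For *Rxra* it was -0.29 (-0.42 to -0.16), -1.05 (-1.20 to -0.91) and -0.65 (-0.78 to -0.53), and the shKDM4D value is 0.15 when divided by *Gapdh*. *Cebpd* separated the shMLL1 line from the others, with -0.90 (-1.01 to -0.79) in shKDM4D, -1.03 (-1.14 to -0.92) in shNFIB and 0.17 (0.06 to 0.27) in shMLL1 cells. *Cebpb* did so too, with -0.25 (-0.39 to -0.12), -0.22 (-0.39 to -0.06) and 0.24 (0.11 to 0.38), and here the shKDM4D value is 0.19 when divided by *Gapdh*. For *Ppard* all 3 intervals included 0. *Cebpg* differed the other way, by 0.71 (0.55 to 0.86) in shNFIB and 0.77 (0.63 to 0.91) in shMLL1 cells. So did *Rxrb*, by 0.40 in shKDM4D cells (0.13 to 0.67) and by 0.36 in the shMLL1 line (0.13 to 0.59). These differences share the shControl libraries. They also depend on the scaling, since 20 of the 24 leave their counting interval when divided by *Gapdh*. For *Pparg* the values then are -0.41 in shKDM4D, -1.68 in the shNFIB line and -0.44 in the shMLL1 line, so that the shKDM4D line no longer stands below the shMLL1 line.

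The day effect over the 4 lines was tested with limma in an additive fit of line and day to log2(RPKM + 0.1), in which the 3 residual degrees of freedom come from lines that changed unequally. *Cebpa* was higher at day 5 by 1.95 (1.43 to 2.46, adjusted p = 0.0013), *Rxra* by 0.85 (0.42 to 1.27, adjusted p = 0.0096), *Pparg* by 0.83 (0.37 to 1.30, adjusted p = 0.013), *Cebpd* by 0.85 (0.31 to 1.40, adjusted p = 0.022) and *Ppard* by 0.28 (0.058 to 0.50, adjusted p = 0.044). These 5 of the 8 factors passed, all upward, against 29.0% of all genes that passed upward and 21.0% downward. Each of the 5 rose in 4 of 4 lines, as did *Cebpb*. Divided by *Gapdh*, the changes of *Pparg*, *Ppard*, *Rxra* and *Cebpd* in shNFIB cells are negative. *Cebpb* (0.30, adjusted p = 0.059), *Cebpg* (0.10, adjusted p = 0.64) and *Rxrb* (0.08, adjusted p = 0.53) did not pass. Without shControl, *Pparg*, *Rxra* and *Cebpa* passed and *Cebpd* (adjusted p = 0.073) and *Ppard* (adjusted p = 0.13) did not, and likewise without shMLL1 (0.063 and 0.089). *Ppard* was also lost without shKDM4D (adjusted p = 0.17), without shNFIB (0.062), with quantile normalization (0.17) and with the ratio to *Gapdh* (0.56). Fitted without the line as a replicate block, *Pparg* did not pass either (adjusted p = 0.11).

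**Figure D2:**
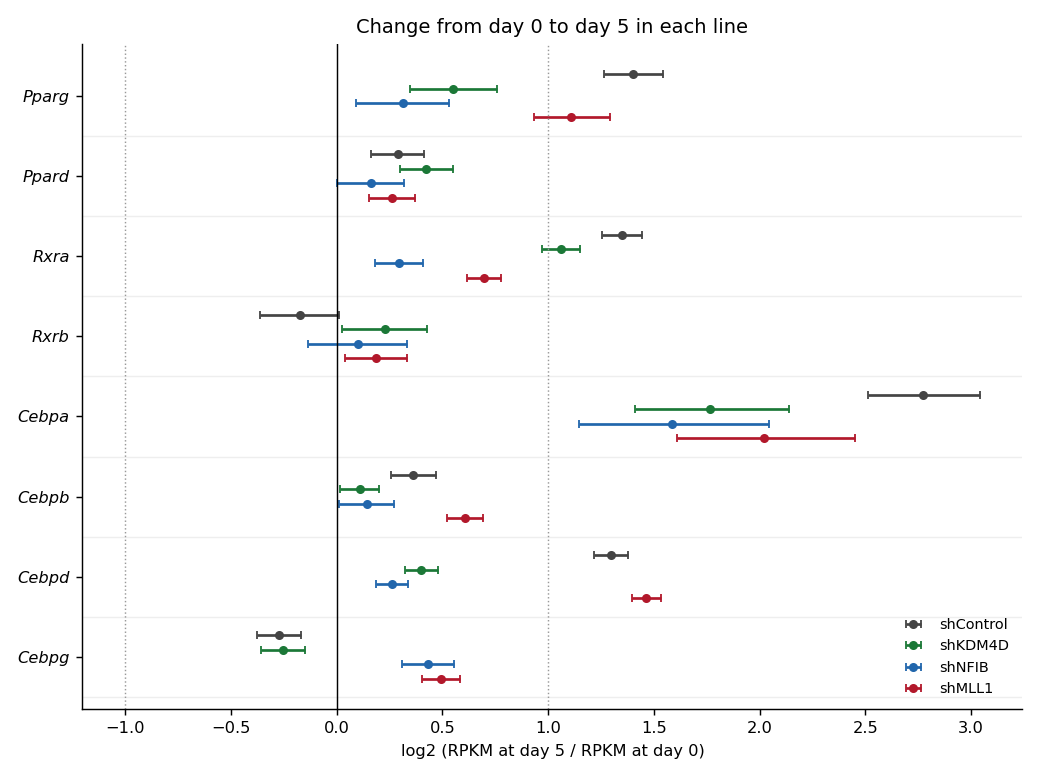
Log2 ratio of the RPKM at day 5 to that at day 0 (horizontal axis) for 8 factors in the 4 lines, with exact 95% intervals for counting error, and dotted lines at 2-fold. *Cebpa* rose past 2-fold in all 4 lines, while *Cebpg* lay below 0 in shControl and shKDM4D cells and above 0 in shNFIB and shMLL1 cells (the shKDM4D and shNFIB signs turn when divided by *Gapdh*).

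The lines were next compared with shControl cells on the same day. At day 0, 0 of the 8 factors were higher and 0 lower past 2-fold in shKDM4D cells, against 1.98% and 4.26% of all genes. In shNFIB cells *Cebpd* was higher past 2-fold and 0 were lower, against 2.95% and 6.05%. The *Cebpd* ratio lay just past 2-fold, and with the rRNA-like genes left out it fell short. In shMLL1 cells 0 were higher, and *Pparg* (-1.29, -1.48 to -1.11) and *Cebpa* (-1.78, -2.24 to -1.34) were lower past 2-fold, against 1.67% and 7.43%. The *Cebpa* ratio is -0.93, short of 2-fold, after adding 1 to each RPKM. The low level of both was thus present in shMLL1 cells before induction. Short of 2-fold, *Pparg* was also below shControl before induction in the shKDM4D line (-0.55, -0.75 to -0.36) and the shNFIB line (-0.44, -0.64 to -0.25), and *Cebpa* in shNFIB cells (-0.75, -1.21 to -0.31). Divided by *Gapdh*, the shNFIB ratio of *Pparg* takes the opposite sign, at 0.20. *Cebpg* was also lower in shMLL1 cells at day 0, by a ratio of -0.77 (-0.87 to -0.68), short of 2-fold.

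At day 5, *Pparg* and *Cebpa* were lower than in shControl cells past 2-fold in each of the 3 knockdown lines, and 0 of the 8 were higher. Over all genes, 1.88% were higher and 4.57% lower in shKDM4D, 5.54% and 5.67% in shNFIB, and 5.25% and 4.02% in shMLL1 cells. The *Pparg* ratio was -1.40 in shKDM4D (-1.55 to -1.25), -1.53 in the shNFIB line (-1.71 to -1.36) and -1.59 in the shMLL1 line (-1.71 to -1.46). The *Cebpa* ratio was -1.37 (-1.57 to -1.18), -1.94 (-2.20 to -1.68) and -2.53 (-2.75 to -2.32). The 3 comparisons use the same shControl library. In bulk RNA, fewer fat cells and less RNA per fat cell cannot be told apart.

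Across both days, 0 of the 8 factors passed an adjusted p of 0.05 between a knockdown line and shControl in the same limma fit. The 2 days of a line stand in for replicates in this fit, so its p-values measure no spread between clones. A difference from shControl that is larger on 1 day than on the other adds to the residual. All genes that passed were 0 higher and 0.0347% lower in shKDM4D, 0.104% and 0.269% in shNFIB, and 0 and 0.0174% in shMLL1 cells, so few genes of any kind reached the threshold. At an unadjusted p under 0.05 there were 3, 2 and 3 factors, among them *Pparg* and *Cebpa* in each line. Many other genes reached this limit too. Of all 11513 genes, 582 were higher and 752 lower in shKDM4D, 1461 and 1047 in shNFIB, and 798 and 957 in shMLL1 cells. The *Pparg* difference was -0.97 in shKDM4D (-1.62 to -0.31, adjusted p = 0.35), -0.98 in shNFIB (-1.63 to -0.33, adjusted p = 0.14) and -1.42 in shMLL1 cells (-2.07 to -0.77, adjusted p = 0.17). The *Cebpa* difference was -0.85 (-1.58 to -0.13, adjusted p = 0.39), -1.31 (-2.03 to -0.58, adjusted p = 0.11) and -2.06 (-2.78 to -1.33, adjusted p = 0.15). With the ratio to *Gapdh* in the limma fit, *Cebpa* (adjusted p = 2.5e-06) and *Pparg* (adjusted p = 0.00079) passed in shMLL1 cells, among 271 of all genes. In shKDM4D and shNFIB cells 0 factors passed with this scaling.

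Between the knockdown lines at day 5, *Cebpa* was higher past 2-fold in shKDM4D than in shMLL1 cells (1.16, 0.92 to 1.41), the only one of the 8, and 0 were lower, against 3.75% and 7.00% of all genes. The ratio is 0.91, short of 2-fold, after adding 1 to each RPKM, and divided by *Gapdh* *Rxra* passes 2-fold as well (1.18). Neither direction had a factor past 2-fold between shKDM4D and shNFIB cells (4.21% and 6.14% of all genes) or between shNFIB and shMLL1 cells (3.93% and 6.08%). Short of 2-fold, shKDM4D cells were above shNFIB cells in *Rxra* (0.87, 0.78 to 0.96) and *Cebpb* (0.74, 0.63 to 0.85).

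**Figure D3:**
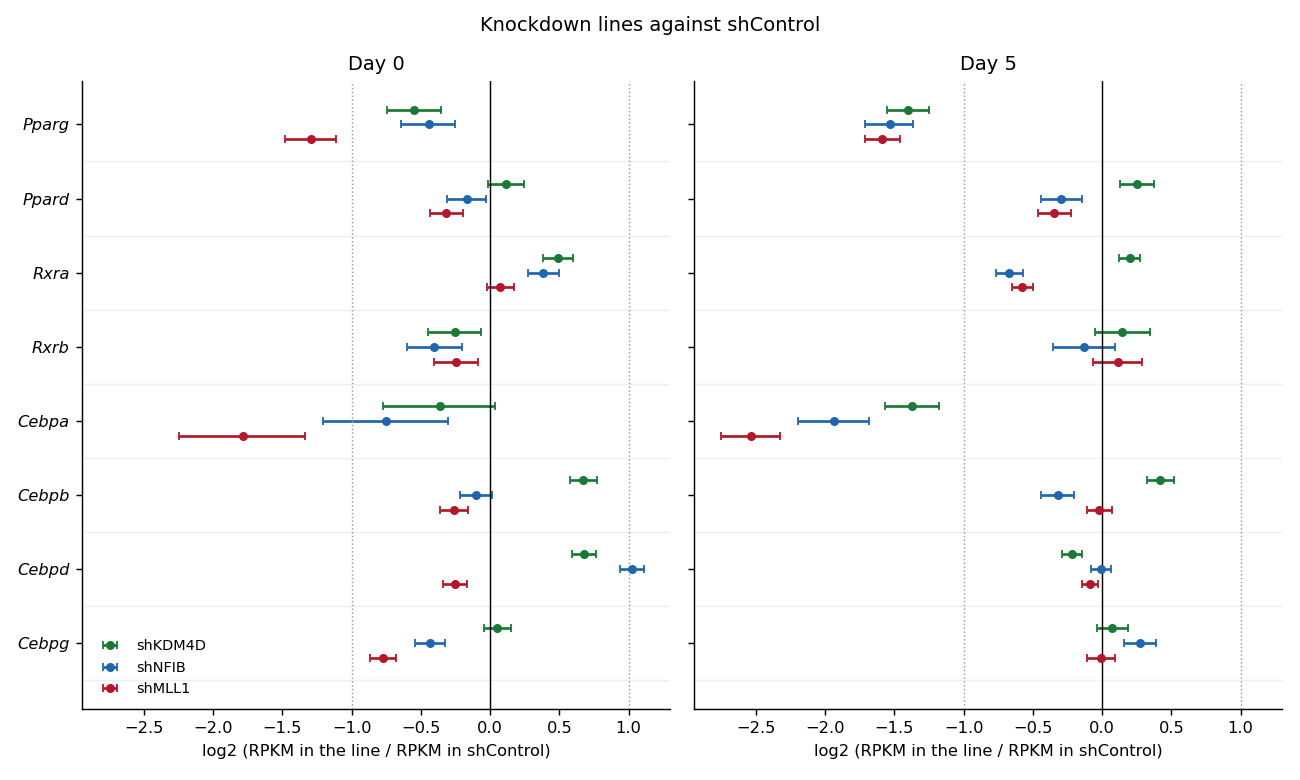
Log2 ratio of the RPKM in each knockdown line to that in shControl cells (horizontal axis) at day 0 and day 5 for 8 factors, with exact 95% intervals for counting error and dotted lines at 2-fold. At day 5 *Pparg* and *Cebpa* lie past 2-fold below shControl in all 3 lines, and at day 0 in shMLL1 cells.

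As RPKM is per exon length, the levels of the factors can be set against each other within a library. Such ratios depend on the exon length taken for each gene, and transcripts of a gene are not separated. The intervals cover neither. In shControl cells the *Cebpa* level was 0.0535 of that of *Cebpb* at day 0 (0.0448 to 0.0635) and 0.284 at day 5 (0.259 to 0.311). At day 5 the ratio was 0.0823 in shKDM4D (0.0728 to 0.0927), 0.0928 in the shNFIB line (0.0777 to 0.110) and 0.0497 in the shMLL1 line (0.0434 to 0.0567). *Cebpa* thus made up 11.4% of the summed C/EBP level in shControl cells at day 5, and 4.35%, 3.51% and 2.25% in the 3 lines. The summed C/EBP level itself differed less, at an RPKM of 123 in shControl, 124 in shKDM4D, 104 in the shNFIB line and 107 in the shMLL1 line at day 5.

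The ratio of *Pparg* to *Ppard* was 1.52 at day 0 (1.37 to 1.67) and 3.28 at day 5 (3.01 to 3.57) in shControl cells. It was 0.957 and 1.04 in shKDM4D, 1.25 and 1.39 in shNFIB, and 0.769 and 1.39 in shMLL1 cells, so that *Ppard* was as high as *Pparg* in shKDM4D cells on both days. The ratio of *Pparg* to its partner *Rxra* did not move in shControl cells beyond counting error, at 0.877 (0.797 to 0.963) and 0.909 (0.849 to 0.974). It was lower in every knockdown library, at 0.427 and 0.300 in shKDM4D, 0.494 and 0.500 in shNFIB, and 0.339 and 0.452 in shMLL1 cells at days 0 and 5. The ratio of *Rxra* to *Rxrb* at day 5 was 4.40 in shControl, 4.57 in shKDM4D, 3.03 in the shNFIB line and 2.73 in the shMLL1 line. The ratio of *Cebpd* to *Cebpb* at day 0 was between 0.510 and 0.513 in shControl, shKDM4D and shMLL1 cells and 1.11 in shNFIB cells (1.04 to 1.20).

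**Figure D4:**
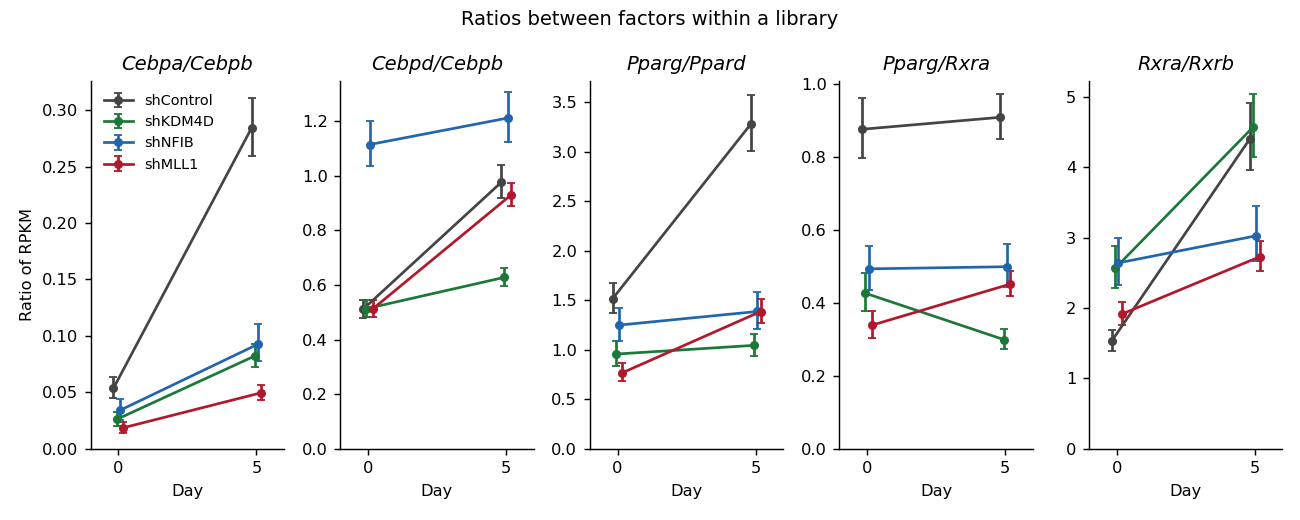
Ratios of RPKM between pairs of factors within a library (vertical axes from 0) at day 0 and day 5 in the 4 lines, with exact 95% intervals for counting error. The *Cebpa* to *Cebpb* ratio reached 0.284 in shControl cells and at most 0.0928 in the knockdown lines, and the *Pparg* to *Rxra* ratio of shControl cells lay above all knockdown libraries.

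The genes around the factors were described by lists chosen with results of these data known. Of 23 fat cell genes known as targets of PPARγ or C/EBPα, 19 had an RPKM over 1 in some library. All 19 rose past 2-fold in shControl cells, and 15 did so in shKDM4D, 12 in the shNFIB line and 15 in the shMLL1 line, with 0 falling. Of all genes, 13.0%, 12.8%, 12.6% and 20.4% rose and 8.56%, 8.44%, 4.96% and 6.89% fell in the same order. The median log2 change, after adding 0.1 to each RPKM, was 5.23, 1.96, 0.75 and 1.22 in the 4 lines, against 0.03, 0.03, 0.09 and 0.17 over all genes. At day 5, 18 of the 19 were lower past 2-fold than in shControl in shKDM4D cells and 19 in shNFIB and in shMLL1 cells, with medians of -3.40, -4.62 and -4.78, against 0.01, 0.09 and 0.07 over all genes. The shares of all genes lower past 2-fold at day 5 were 4.57%, 5.67% and 4.02% in these lines. Of the 19, 6 pass the RPKM limit only in shControl cells at day 5, so that their higher level there follows from this filter. Fewer than 3 reads in at least 1 knockdown library covered 10 of the 19.

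*Fabp4*, the fatty acid carrier of fat cells, had at day 5 an RPKM of 277 in shControl, 9.34 in shKDM4D, 0.380 in the shNFIB line and 1.75 in the shMLL1 line. *Adipoq*, the hormone adiponectin, had 258, 9.01, 0.229 and 0.570 in the same order, and *Cidec*, a lipid droplet protein, 138, 3.76, 0.0680 and 0.113. The 3 lines with similar *Pparg* levels thus had unequal levels of these genes, with shKDM4D cells above the other 2 lines. *Scd1*, the stearoyl-CoA desaturase, had 27.0 at day 0 and 272 at day 5 in shControl cells, and 22.0, 11.0 and 13.4 at day 5 in shKDM4D, shNFIB and shMLL1 cells. *Plin4*, a droplet coat protein, was closest to shControl, with 52.0 there and 43.2 in shKDM4D, 16.7 in the shNFIB line and 23.3 in the shMLL1 line. *Acsl1*, which activates fatty acids, had 36.4 in shControl cells at day 5 and 3.95, 1.72 and 1.58 in the 3 lines.

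The fat cell markers *Adipoq*, *Fabp4*, *Plin1* and *Cidec* were highest in shControl cells at day 5, as *Pparg* and *Cebpa* were, and *Lep*, the fifth marker, was listed at 0 in all libraries. Their summed RPKM was between 0.0976 and 0.688 at day 0, and 708 in shControl, 24.0 in shKDM4D, 0.717 in the shNFIB line and 2.61 in the shMLL1 line at day 5. At day 5 the shMLL1 line was thus above the shNFIB line in this sum and below it in *Cebpa*. *Pparg* did not differ between these 2 lines beyond counting error (shNFIB over shMLL1, log2 ratio 0.05, -0.13 to 0.23). The 4 fat cell markers are also among the target genes above. The share of fat cells in a library and its part in these results was not tested. Summed leukocyte, endothelial, epithelial and muscle markers did not exceed an RPKM of 1.68 in any library. The cartilage marker *Sox9* was between 48.4 and 73.8 at day 0 and between 120 and 188 at day 5, highest in shKDM4D cells, whereas *Col2a1* fell to at most 7.48 at day 5 and *Acan* did not exceed 0.00619. Of the bone markers, *Runx2* was between 2.64 and 8.15 and the other 3 did not exceed 0.0828. The mesenchymal marker *Ly6a* was at 927 in shMLL1 cells at day 5, against 136 in shControl. The part of these cell states in the results was not tested.

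**Figure D5:**
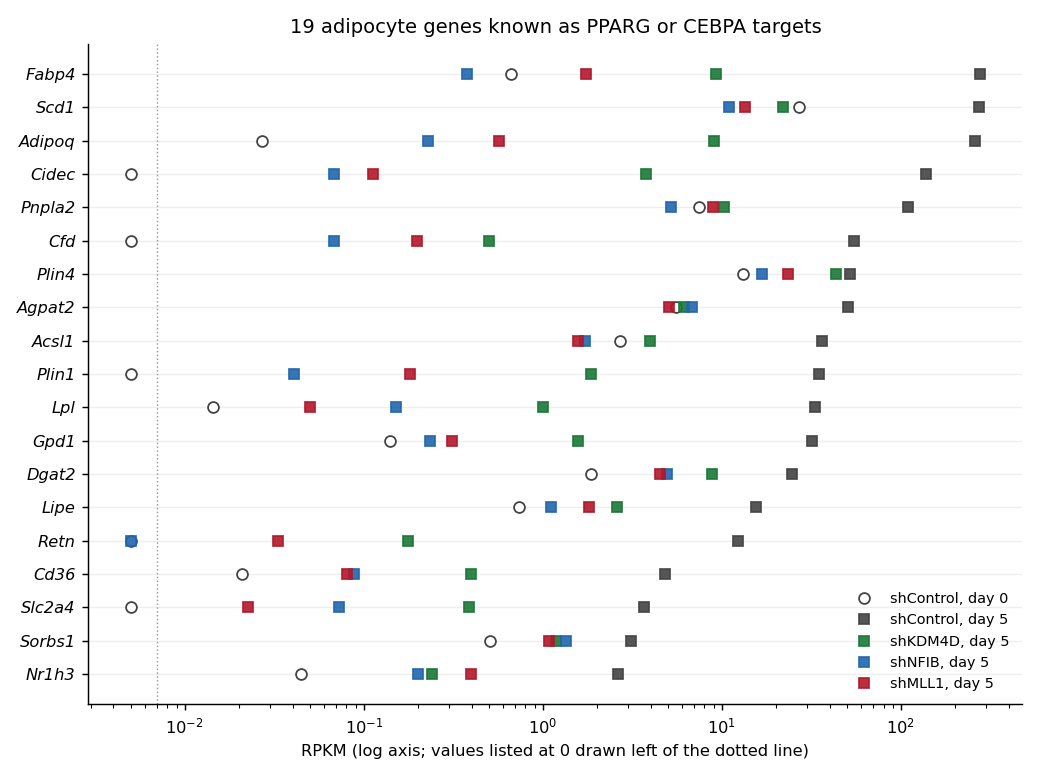
RPKM (log axis) of the 19 expressed fat cell genes known as PPARγ or C/EBPα targets in shControl cells at day 0 (open circles) and in the 4 lines at day 5 (squares), with values listed at 0 drawn left of the dotted line. For *Fabp4*, the day 5 values were 277 in shControl and 9.34, 0.380 and 1.75 in shKDM4D, shNFIB and shMLL1 cells.

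Genes known as targets of PPARα or PPARδ, most but not all of them for fatty acid oxidation, moved less. Of 17 listed, 12 had an RPKM over 1, and 6 rose past 2-fold in shControl, 3 in shKDM4D, 1 in the shNFIB line and 3 in the shMLL1 line, with 0 falling. Of all genes, 13.0%, 12.8%, 12.6% and 20.4% rose in the same order, so that the shNFIB and shMLL1 counts are near those shares. At day 5, 2 were lower than in shControl past 2-fold in shKDM4D, 4 in the shNFIB line and 3 in the shMLL1 line. The shares of all genes lower by as much were 4.57%, 5.67% and 4.02% in these lines. *Plin2*, a droplet coat protein of many cell types, had at day 5 an RPKM of 62.2 in shControl, 46.4 in shKDM4D, 35.6 in the shNFIB line and 63.5 in the shMLL1 line. *Angptl4*, a secreted lipase inhibitor, had 8.72, 0.915, 1.44 and 2.56, and *Pdk4*, a kinase that holds back pyruvate oxidation, 12.0, 3.27, 1.20 and 5.60.

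Cofactors of the receptors were counted in the same way. Of 11 expressed coactivators, 1 rose past 2-fold in each line and 0 fell, and in all lines it was *Ppargc1a*, named here after its values were seen. A share of 1 in 11 is below that of all genes, of which 12.6% to 20.4% rose. Its RPKM was 0.376 and 2.00 in shControl, 0.0466 and 1.32 in shKDM4D, 0.171 and 1.83 in shNFIB, and 0.282 and 4.01 in shMLL1 cells. The abundant coactivators *Carm1*, *Med1*, *Crebbp* and *Tle3* lay between 8.35 and 23.6 in all libraries. Of 8 corepressors, 1 rose past 2-fold in shControl cells and 0 in the other lines, and 0 fell. Of all genes, 13.0% rose in shControl cells, so that 1 of 8 is near that share. Between 4.96% and 8.56% of all genes fell in the 4 lines. *Gps2*, *Tbl1x*, *Ncor1* and *Tbl1xr1* were the most abundant.

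Of the other receptors that pair with an RXR, 6 of 10 had an RPKM over 1 and 2 rose past 2-fold in every line, with 0 falling. One was *Thra*, a thyroid hormone receptor, at 30.6 and 108 in shControl, 32.1 and 119 in shKDM4D, 22.7 and 62.4 in shNFIB, and 20.2 and 79.9 in shMLL1 cells. The other was *Nr1h3*, named after its values were seen, which is also among the fat cell targets, did not exceed 2.63 and passes the RPKM limit through shControl cells at day 5 alone. Its reads went from 3 to 13 in shKDM4D, from 0 to 8 in shNFIB and from 3 to 38 in shMLL1 cells, so its calls there rest on few reads. Without it, 1 of 5 rose, against 12.6% to 20.4% of all genes. At day 5 *Thra* was thus above each of the 9 factors in all 4 lines. Among the relatives outside the set, *Rxrg* was listed at 0 in all libraries, *Cebpe* did not exceed 0.0746, and *Cebpz* lay between 12.1 and 23.0.

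Known inducers of the early factors or of *Pparg* were described last. Of 13 listed, 12 had an RPKM over 1, and 4, 4, 3 and 4 rose past 2-fold in shControl, shKDM4D, shNFIB and shMLL1 cells, while 2, 2, 1 and 1 fell. Of all genes, 13.0%, 12.8%, 12.6% and 20.4% rose and 8.56%, 8.44%, 4.96% and 6.89% fell. *Ebf1*, an early B-cell factor that acts upstream of *Pparg*, had an RPKM of 3.97 and 18.8 in shControl, 3.85 and 20.6 in shKDM4D, 1.88 and 9.28 in shNFIB, and 1.56 and 11.2 in shMLL1 cells. It thus rose in all lines, from a lower level in shNFIB and shMLL1 cells. *Nr3c1*, the receptor of dexamethasone, lay between 15.2 and 23.0, and *Stat3* between 8.11 and 19.1. *Klf4*, an inducer of *Cebpb*, had 93.4 and 32.0 in shControl, 91.3 and 40.3 in shKDM4D, 95.4 and 65.8 in shNFIB, and 66.4 and 45.9 in shMLL1 cells.

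Across the 8 libraries, the pattern of log2(RPKM + 0.1) of *Pparg* was most like that of *Naaa* among 6631 genes with a mean RPKM of at least 5, with a Pearson r of 0.97, followed by *Mpc1*, *Prune1* and *Rnd2* (each 0.96) and *Gstz1* (0.95). *Cebpa* was most like *Naaa* (0.98), *Hp* (0.98), *Add3* (0.97), *Hadha* (0.97) and *Fbxo32* (0.96). *Naaa* encodes a lysosomal amidase, *Mpc1* a subunit of the mitochondrial pyruvate carrier, *Hp* haptoglobin and *Hadha* a subunit of the mitochondrial trifunctional protein. The r between *Pparg* and *Cebpa* was 0.94. These values describe 8 libraries that share lines, days and the same high library, shControl at day 5, and the genes most like either factor depended on the measure of likeness. *Hp* had an RPKM of 1.43 and 304 in shControl, 0.351 and 29.2 in shKDM4D, 0.867 and 9.43 in shNFIB, and 0.114 and 5.96 in shMLL1 cells. *Naaa* moved over a narrower range, at 8.55 and 18.1, 6.97 and 10.2, 6.16 and 9.09, and 4.72 and 7.51 in the same order.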

How the data were processed

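RNA-seq was done on 8 libraries of C3H10T1/2 cells, 1 per line and day. Mapping by the authors used the GRCm38/mm10 mouse build and CLC Genomics Workbench, with a mismatch cost of 2, insertion and deletion costs of 3, and length and similarity fractions of 0.8, and deposited an RPKM value per gene and library. The methods name a stranded kit (SMARTer Stranded) and the labels an mRNA-Seq kit without that word, and the strand setting of the counting is not given in the sources used here. The annotation was not given either, so exon lengths and positions were taken from GENCODE M21 of the same build. With these lengths, RPKM values worth 1 to 1000 reads were whole reads to within 0.02 for 96.2% to 96.6% of genes, depending on the library, which gave the mapped reads of each library. Reads of *Rxrb* came out whole in 8 libraries with an exon length of 3698 and not with the annotated 3973, and the shorter was used. Reads of *Pparg* were fractional in 4 libraries and those of *Cebpa* in 1, and were rounded.

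Log2 ratios of RPKM were computed without a pseudocount, and their exact 95% intervals (Clopper-Pearson, conditional on the summed reads) cover counting error only. Reads carry no molecular identifiers, so they are not independent molecules. The interval of a difference of changes used the normal approximation to the 4 read counts on the log scale. A condition has 1 library, so no test was run within a line or a day. After the data were seen, an additive fit of line and day to log2(RPKM + 0.1) of the 11513 genes (limma with a mean-variance trend, Benjamini-Hochberg adjustment over all genes) was added to test the day over the 4 lines and each line over both days. It takes the lines as pairs of libraries, as day 0 and day 5 share a line, and its residual holds the line-by-day differences. Recovery of reads and the intervals were checked on simulated counts, and the limma fit on simulated log values. Changes past 2-fold were counted over genes that exceeded an RPKM of 1 in some library, without further filter. The 9 genes, the lists and the rule for naming genes (of a list the 4 with the highest mean RPKM, and those past 4-fold in shControl cells with an RPKM of at least 5) were chosen with earlier results of these data known. Promoters were taken from RefSeq (GRCm38.p6) and searched for exact motif matches on both strands. Alternatives were quantile normalization, median-of-ratios scaling, the ratio to *Gapdh*, leaving out the rRNA-like genes *AY036118* and *CT010467.1*, pseudocounts of 0.1 and 1, other filters on RPKM, shares by reads and other measures of likeness. R 4.3.3, limma 3.58.1, Python 3.11.15, numpy 2.4.6, pandas 2.3.3, scipy 1.17.1 and matplotlib 3.10.9 were used.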

Additional observations from a re-analysis of the deposited data

Results flagged for a closer look

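Some genes moved in opposite directions in 2 conditions, with both counting intervals away from 0. With 1 library per condition, none of these differences was tested. Divided by *Gapdh*, 10 of the 13 stay opposite, and the 3 that do not are those of *Cebpg* and *Atf4* in shNFIB cells. From day 0 to day 5, the log2 change of *Cebpg* was -0.27 in shControl cells, against 0.43 in shNFIB and 0.49 in shMLL1 cells. *Atf4*, whose protein can pair with that of *Cebpg*, changed by -1.38 in shControl cells, 0.56 in shNFIB and 0.28 in shMLL1 cells. Against shControl cells, *Cebpg* in shNFIB cells was at -0.43 at day 0 and 0.27 at day 5. Divided by *Gapdh*, the changes in shNFIB cells are -0.13 for *Cebpg* and 0.00 for *Atf4*, and the *Cebpg* ratio to shControl is 0.21 at day 0 and 0.32 at day 5. *Rxra* in shNFIB cells went from 0.38 at day 0 to -0.67 at day 5, and *Cebpd* in shKDM4D cells from 0.68 to -0.22.

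Among the target genes, *Acsl1* changed from day 0 to day 5 by 3.76 in shControl cells, -0.29 in shNFIB and -0.75 in shMLL1 cells. *Scd1* changed by 3.33 in shControl and -0.74 in shMLL1 cells, and *Pdk4* by 2.38 in shControl and -0.54 in shNFIB cells. Smaller opposite changes were seen in shNFIB cells for *Nr3c1*, at -0.15 against 0.16 in shControl, and for the coactivator *Tle3*, at -0.10 against 0.40.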

How the results depend on the processing

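The counts of factors past 2-fold kept within 1.5 times of their value in all 26 cases with quantile normalization and with a pseudocount of 0.1. Those that did not under the other alternatives are as follows. In shKDM4D cells, 1 factor and not 2 rose from day 0 to day 5 without the rRNA-like genes. The count of factors higher in shNFIB than in shControl cells at day 0, which is 1, was 0 with median-of-ratios scaling, 0 without the rRNA-like genes and 0 with a pseudocount of 1, and was 2 with the ratio to *Gapdh*. The count lower in shMLL1 cells at day 0, which is 2, was 1 with a pseudocount of 1. At day 5, the count higher in shKDM4D than in shMLL1 cells, which is 1, was 2 with the ratio to *Gapdh* and 0 with a pseudocount of 1, and the count higher in shNFIB than in shMLL1 cells, which is 0, was 1 with the ratio to *Gapdh*. The causes were not tested. No ratio past 2-fold changed sign. Of the smaller ratios and differences of changes, 25 changed sign with the ratio to *Gapdh* (RPKM 159 to 326) and 1 with quantile normalization. The median log2 ratio of all genes moved by -0.56 to 0.64 with *Gapdh*, by -0.28 to 0.12 with quantile normalization, by -0.16 to 0.09 with median-of-ratios scaling and by -0.11 to 0.01 without the rRNA-like genes. With no filter on RPKM, the genes past 2-fold numbered 1767 to 6712 over the comparisons, which is 2.63 to 12.4 times the counts of 192 to 2345 used here. With a limit of 2 in place of 1 they numbered 124 to 1923, or 0.597 to 0.889 times. Taken by reads, which favour long genes, *Pparg* was 56.3% and not 76.6% of the PPAR family in the day 5 shControl library. Among the 5 genes most like *Pparg*, 5 remained with a pseudocount of 1 and 1 with rank correlation, and of those most like *Cebpa*, 2 and 0. In all, 67 of the 104 log2 ratios and 20 of the 24 differences of changes left their counting interval with *Gapdh*, 18 and 4 with quantile normalization, 11 and 4 with median-of-ratios scaling, and 9 and 0 without the rRNA-like genes. The limma fit of line and day was added after the data were seen, with its alternatives. The 5 factors it called for the day became 3 with no replicate block (the line) and 3 to 4 with a line left out. The 0 factors called between shMLL1 and shControl became 2 with the ratio to *Gapdh* and the replicate block. Over all genes, its alternatives called 3417 to 5752 genes for the day (5752 as reported), 2 to 121 for shKDM4D (4), 13 to 351 for shNFIB (43) and 0 to 271 for shMLL1 (2). *Ppara* was at or under 1 read, so its changes could not be measured at this depth.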
